A study of Mus musculus with 8 samples.

Results

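The necroptosis machinery genes are the 10 genes Ripk3, Ripk1, Mlkl, Zbp1, Ticam1, Tnf, Tnfrsf1a, Casp8, Fadd and Cyld, out of 29955 gene names listed for each library. They were chosen by symbol as the RIP kinases, their adaptors, the executioner of necroptosis and the molecules directly around them, and all 10 were found, had reads in every library and passed the low-value filter (a mean of at least 1 in the libraries compared) in every comparison. RNA-seq was performed on LSK cells (Lin- Sca1+ Kit+, which hold the hematopoietic stem cells and multipotent progenitors) and LK cells (Lin- Kit+, sorted without Sca1, which hold the myeloid progenitors), both sorted from bone marrow of mice of the WT and the Ripk3-/- genotype, with 2 libraries in each of the 4 groups. The strain background of all libraries is labelled CD57BL6/J, which the study's methods write as C57BL/6J. No tissue-specific Cre is named for the Ripk3-/- mice, and the WT mice were bought from a supplier and are not stated to be littermates. The study's account of its sequencing results states that the mice had received fractionated X-irradiation and were sampled about a month later, whereas the labels of the samples give no treatment. If that statement holds, it holds for all 4 groups, and no unirradiated library enters any comparison. Age and the number of mice per library are not given in the sources used here. Nothing says that the libraries of a group came from separate mice, so p-values measure the spread between these libraries, which may be technical.

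Necroptosis is a lytic form of programmed cell death. When death receptors such as the TNF receptor, the Toll-like receptor adaptor Ticam1 or the nucleic acid sensor Zbp1 are engaged while caspase-8 is inactive, Ripk3 is recruited through RHIM motifs, often by way of Ripk1, and phosphorylates the pseudokinase Mlkl, which then oligomerises and permeabilises the plasma membrane. Caspase-8, held by the adaptor Fadd, cleaves the RIP kinases and keeps the pathway off, and the pathway is known in bone marrow for the loss of stem and progenitor cells under inflammatory stress.

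Each value, the signal, is a CPM (the reads of a gene relative to all reads of its library) after TMM scaling of the library, with no division by gene length. They were scaled separately for LSK and for LK libraries. The libraries held 9782166 to 16280811 reads, and 1 read was worth 0.0621 to 0.104 signal, so that the floor of 3 reads lay between 0.186 and 0.311 signal. Floors cover counting error only. The spread between replicates was far above counting error (chi-square of 22.5 to 31.2 per degree of freedom). The sort was checked by its own genes. Ly6a, which encodes Sca1, had a signal of 141 to 237 in LSK and 0.124 to 4.12 in LK libraries, and Kit had 223 to 464 in LSK and 237 to 328 in LK libraries. Kit also differed by genotype, at 223 and 298 in WT against 464 and 355 in Ripk3-/- LSK libraries. In LK libraries Kit was at 253 and 237 against 328 and 321. The gate genes listed for LSK cells were Kit, Ly6a, Cd34, Flt3, Slamf1, Mecom and Hlf. Their summed signal was 2089 and 2087 in WT LSK against 3224 and 2851 in Ripk3-/- LSK libraries. Genes of mature neutrophils (8 of 8 above 0 in every library) summed to a signal of 704 to 769 in WT LSK, 2339 to 2766 in Ripk3-/- LSK, 774 to 781 in WT LK and 1679 to 1683 in Ripk3-/- LK libraries, and so were higher in the Ripk3-/- libraries of both populations. The Y-linked genes Uty, Eif2s3y and Kdm5d were at 0 in all 4 WT libraries and above 0 in all 4 Ripk3-/- libraries. Kdm5d lay below the floor in Ripk3-/- LK replicate 2 (0.124), and Ddx3y, also Y-linked, was at 0 in all 8 libraries. Xist had a signal of 108 to 413 in WT and 0 to 1.27 in Ripk3-/- libraries. Genotype and sex therefore cannot be told apart in any genotype comparison.

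The genes lie apart in the genome. On GRCm38, Ripk3 is on the minus strand of chromosome 14 (55784995 to 55788865), Ripk1 on the plus strand of chromosome 13 (34002363 to 34037147), Mlkl on the minus strand of chromosome 8 (111311797 to 111338177) and Zbp1 on the minus strand of chromosome 2 (173206612 to 173218923). Both Tnf (35199381 to 35202007) and Ticam1 (56269319 to 56276786) are on the minus strand of chromosome 17. Tnfrsf1a is on the plus strand of chromosome 6 (125349362 to 125362484), Casp8 on the plus strand of chromosome 1 (58795374 to 58847503), Fadd on the minus strand of chromosome 7 (144577318 to 144582463) and Cyld on the plus strand of chromosome 8 (88697028 to 88751945). An antisense gene, Faddos, overlaps Fadd over 4195 bases, and a same-strand transcript, Gm37760, overlaps Casp8 over 3841 bases. Ripk1 and Cyld each matched 1 pseudogene at near identity (Gm17084, a processed pseudogene inside Ripk1, and Gm6679). Gm17084 overlaps Ripk1 on the same strand over 511 bases, so the search cannot tell a copy of Ripk1 from sequence that the 2 share by position. The library kit keeps the strand, but whether the counting used it is not given in the sources used here, so the values of these genes may hold reads of their neighbours or copies. If strand was ignored, the same holds for Mlkl, which an opposite-strand processed pseudogene, Gm45712, overlaps over 394 bases, for Ripk1 through Serpinb6a (432 bases) and Gm17083 (1366 bases), and for Cyld through Gm17910 (838 bases) and Gm17995 (530 bases), all on the other strand.

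The promoters of 3 genes are shown because Ripk3 is the deleted gene and because Ripk1 and Mlkl, its partner kinase and its substrate, were both lower in WT LSK than in WT LK cells. They are RefSeq sequences on GRCm38.p6, from 250 bases before to 50 bases after a transcription start, 5′ to 3′ on the strand of the gene. They are Ripk3 on the minus strand (chr14:55788808-55789107), Mlkl on the minus strand (chr8:111338156-111338455) and the windows of 2 starts of Ripk1 on the plus strand (chr13:34002113-34002412 and chr13:34002624-34002923). Capitals mark matches, on either strand, to the motifs searched.
Ripk3: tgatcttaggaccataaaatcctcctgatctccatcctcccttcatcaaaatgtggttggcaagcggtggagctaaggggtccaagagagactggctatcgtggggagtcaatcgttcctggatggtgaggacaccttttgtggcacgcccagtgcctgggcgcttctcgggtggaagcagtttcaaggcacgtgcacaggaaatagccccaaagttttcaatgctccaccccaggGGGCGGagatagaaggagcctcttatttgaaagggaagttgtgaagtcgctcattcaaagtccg
Mlkl: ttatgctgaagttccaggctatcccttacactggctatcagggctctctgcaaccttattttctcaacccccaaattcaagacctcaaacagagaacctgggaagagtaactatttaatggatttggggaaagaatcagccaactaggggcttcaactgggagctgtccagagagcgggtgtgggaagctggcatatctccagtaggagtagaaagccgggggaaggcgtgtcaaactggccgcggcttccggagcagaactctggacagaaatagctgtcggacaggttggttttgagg
Ripk1, first start: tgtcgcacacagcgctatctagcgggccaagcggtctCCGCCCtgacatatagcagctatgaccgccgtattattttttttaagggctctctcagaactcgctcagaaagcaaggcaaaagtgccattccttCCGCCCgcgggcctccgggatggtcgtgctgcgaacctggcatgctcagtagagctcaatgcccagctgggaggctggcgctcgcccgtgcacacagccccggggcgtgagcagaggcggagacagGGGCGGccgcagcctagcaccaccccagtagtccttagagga
Ripk1, second start: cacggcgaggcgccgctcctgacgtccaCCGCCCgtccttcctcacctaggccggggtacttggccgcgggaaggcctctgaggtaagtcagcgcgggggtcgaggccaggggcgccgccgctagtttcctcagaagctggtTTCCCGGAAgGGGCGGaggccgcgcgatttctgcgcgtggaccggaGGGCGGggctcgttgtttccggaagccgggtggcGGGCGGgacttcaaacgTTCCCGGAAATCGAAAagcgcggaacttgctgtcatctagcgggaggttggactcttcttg

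The motifs were the interferon-stimulated response element (GAAA, any 2 bases, GAAA; in 3.44% of all 32851 promoters), the STAT motif GAS TTCNNNGAA (8.3%), an NF-κB motif (8.46%), the Sp1 motif GGGCGG (35.7%) and a composite ETS-IRF motif (GGAA, any 2 bases, GAAA; 2.72%). RefSeq gave 10 promoter windows for 9 of the 10 genes and none for Zbp1, so Zbp1 was not searched for any motif. The interferon motif was found only at the second start of Ripk1, where it overlaps a GAS motif. The GAS motif was found at that start and at Tnfrsf1a, the NF-κB motif at Cyld, and the Sp1 motif in 7 of the 10 windows, those of Ripk3, Ripk1, Ticam1, Tnf, Fadd and Cyld. The composite motif was found in none of the 10 windows. A match is a description of the letters in the window and not evidence that a factor binds there.

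In WT cells, Ripk3 was the gene with the highest level per length of the 10. Levels of different genes are compared only as rescaled CPM per kb of exon, for which all 8 libraries were put on one scale by TMM. In WT LSK cells the order was Ripk3 at 63.2 ± 1.51 (SD, n = 2), Casp8 at 54.2 ± 2.19, Tnfrsf1a at 36.3 ± 1.93, Mlkl at 19.7 ± 0.917, Tnf at 15.99 ± 7.12, Ripk1 at 6.38 ± 1.63, Fadd at 5.76 ± 0.634, Zbp1 at 4.34 ± 0.566, Ticam1 at 4.04 ± 1.68 and Cyld at 3.85 ± 1.21. Of the 9 pairs of neighbours in this order, 4 overlapped between libraries, namely Mlkl and Tnf, Ripk1 and Fadd, Zbp1 and Ticam1, and Ticam1 and Cyld.

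In WT LK cells the same 3 genes led, with Ripk3 at 72.7 ± 1.40, Casp8 at 48.1 ± 5.58 and Tnfrsf1a at 40.3 ± 4.47 rescaled CPM per kb. Mlkl followed at 36.4 ± 6.49 and overlapped Tnfrsf1a, then Ripk1 at 13.2 ± 1.91, Tnf at 9.75 ± 2.70, Fadd at 4.62 ± 1.41, Ticam1 at 4.21 ± 2.17, Cyld at 3.88 ± 0.735 and Zbp1 at 0.718 ± 0.257. Zbp1 was the lowest of the 10 genes in LK cells of both genotypes. The place of Cyld depends on the length used, since per kb of its longest transcript it was at 6.04 in WT LSK cells, above Zbp1 at 4.61. In Ripk3-/- cells Casp8 took the first place in both populations, at 56.8 ± 4.22 in LSK and 57.3 ± 0.315 in LK cells, while Ripk3 itself was last in LSK cells at 0.858 ± 0.632 and at 6.66 ± 1.91 in LK cells. In each of WT LK, Ripk3-/- LSK and Ripk3-/- LK libraries, 3 of the 9 pairs of neighbours overlapped.

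**Figure D1:**
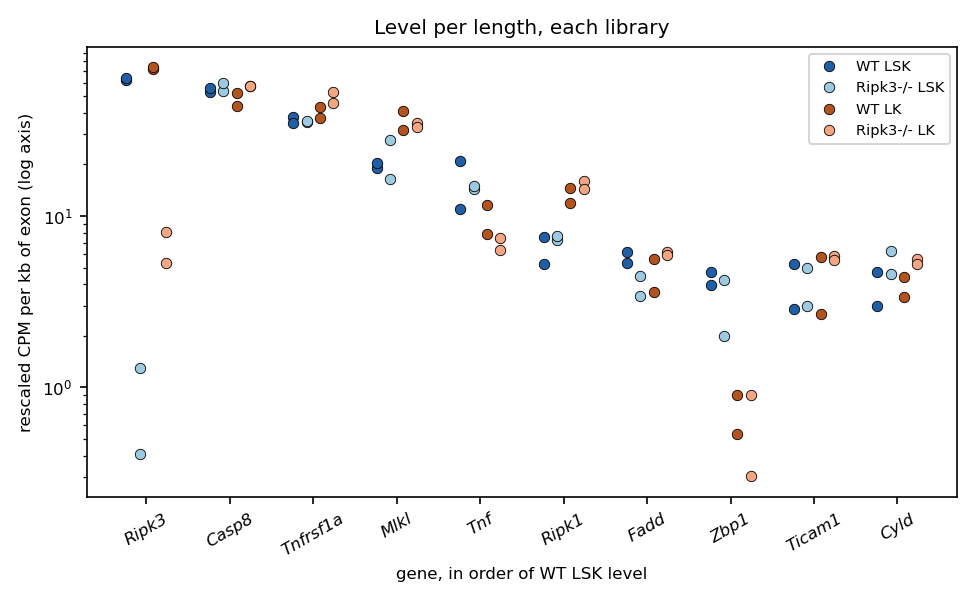
Rescaled CPM per kb of exon (log axis) of each of the 10 genes, ordered by their WT LSK level, with 1 point per library and a color per group. Ripk3 leads in both WT groups (63.2 and 72.7 on average) and falls to 0.858 and 6.66 in the Ripk3-/- groups, and Zbp1 lies lower in all LK than in all LSK libraries.

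The first comparison asks what loss of Ripk3 did to the genes around it. Ripk3, the kinase that phosphorylates Mlkl, fell in both populations, and no other member passed the test. In LSK cells its signal was 162 and 168 in the WT libraries and 3.38 and 1.08 in the Ripk3-/- libraries, while in LK cells it was 144 and 150 for the WT against 16.2 and 10.6 for the Ripk3-/- libraries. All Ripk3-/- libraries lay far below all WT libraries, and the LK libraries of Ripk3-/- mice kept more signal than the LSK libraries. The log2 fold change, Ripk3-/- minus WT, was -5.78 (SE 0.36, adjusted p = 2.39e-09 from limma) in LSK cells and -3.39 (SE 0.36, limma adjusted p = 1.07e-05) in LK cells. It was thus 1 of 10 members called in LSK cells, where limma called 2.16% of all 16817 genes tested, and 1 of 10 in LK cells, where it called 0.473% of 13949 genes. The edgeR test of the reads called Ripk3 in both populations too, with 1.19% and 0.319% of all genes called. The deletion is how the groups were made, so these values check the labels. The call in LK cells was lost without a trend in limma's prior variance (adjusted p = 0.117) and held in the other 15 alternatives.

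The part of Ripk3 that remained in Ripk3-/- libraries was 2.04% and 0.651% of the WT mean in LSK cells (42 and 11 reads) and 11.0% and 7.23% in LK cells (255 and 171 reads). All of these reads are above the floor of 3 reads. On average 1.35% ± 0.985 (SD, n = 2) remained in LSK and 9.12% ± 2.67 (SD, n = 2) in LK cells. The interaction, that is, the genotype effect in LSK minus that in LK cells, was -2.40 on the log2 scale (SE 0.51, adjusted p = 0.0343 from limma), 1 of 10 members called where 0.358% of 15901 genes were called. This call was lost at a pseudocount of 0.1 (adjusted p = 0.0543 from limma), with no filter (0.328), with no trend (0.257) and in 7 of the 8 fits that left out 1 library (0.0568 to 0.342, all but the one without Ripk3-/- LSK replicate 1), and it held with edgeR (log2 difference -2.64, adjusted p = 0.0232; edgeR called 0.254% of all genes). The per-gene values do not say where in the gene these reads lie.

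**Figure D2:**
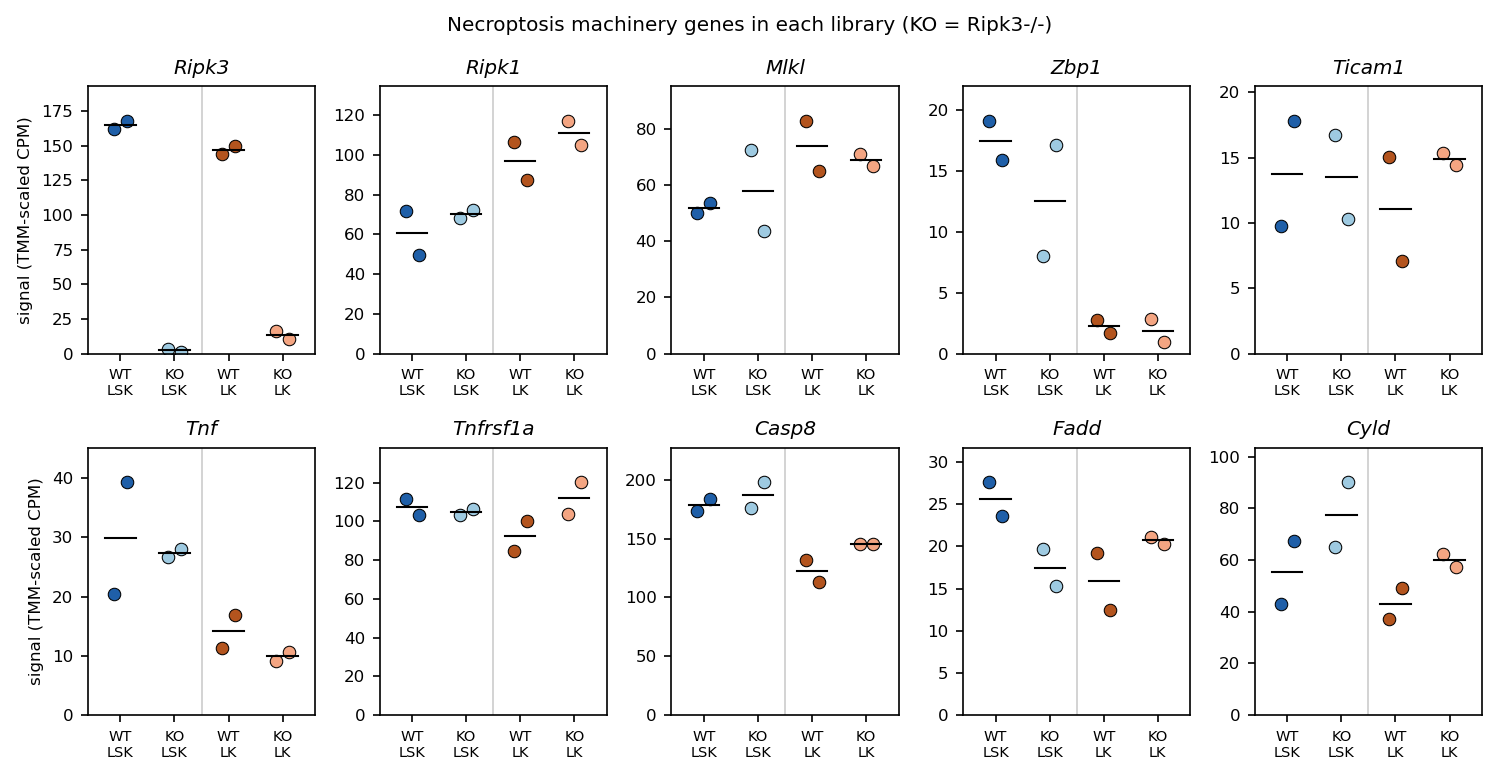
Signal (TMM-scaled CPM, linear axis from 0) of the 10 genes in each library, with 1 point per library and a bar at the group mean, n = 2 libraries per group. The vertical line parts LSK from LK libraries, which were scaled separately. Ripk3 is near 0 in the Ripk3-/- LSK libraries, and for the other genes the points of WT and Ripk3-/- lie close together or overlap in most panels.

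Ripk1, the kinase that both carries the survival signal of the TNF receptor and recruits Ripk3, did not pass the test in either population. Its signal in LSK cells was 71.6 and 49.7 in WT against 68.3 and 72.5 in Ripk3-/- libraries, and in LK cells 107 and 87.6 against 117 and 105. The genotypes overlapped in both populations. The log2 fold change was 0.23 (95% confidence interval -0.27 to 0.73, adjusted p = 0.644 from limma) in LSK and 0.20 (-0.30 to 0.70, adjusted p = 0.937) in LK cells, so that changes beyond 1.66-fold upward or to below 0.832 of WT lie outside the interval in LSK cells.

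Mlkl, the executioner and substrate of Ripk3, stayed present in Ripk3-/- cells. Its signal was 50.1 and 53.5 in WT LSK and 72.4 and 43.4 in Ripk3-/- LSK libraries, and 82.7 and 64.9 in WT LK and 71.0 and 66.6 in Ripk3-/- LK libraries. The Ripk3-/- LSK libraries lay on both sides of the WT ones, and the Ripk3-/- LK libraries lay between them. The log2 fold change was 0.12 (-0.45 to 0.68, adjusted p = 0.863 from limma) in LSK and -0.09 (-0.65 to 0.47, adjusted p = 0.979) in LK cells.

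The other inputs to Ripk3 that carry a RHIM motif are Zbp1, which senses left-handed nucleic acids, and Ticam1 (also called Trif), the adaptor of Toll-like receptors 3 and 4. Zbp1 had a signal of 19.1 and 15.8 in WT LSK and 7.96 and 17.1 in Ripk3-/- LSK libraries, and of 2.79 and 1.68 in WT LK and 2.79 and 0.931 in Ripk3-/- LK libraries. Ticam1 had 9.73 and 17.8 in WT LSK, 16.7 and 10.3 in Ripk3-/- LSK, 15.1 and 7.10 in WT LK and 15.3 and 14.4 in Ripk3-/- LK libraries. For both genes the genotypes overlapped in both populations, and replicates of 1 group often lay further apart than the group means. The intervals were correspondingly wide. For Zbp1 the log2 fold change was -0.53 (-1.77 to 0.71, adjusted p = 0.678 from limma) in LSK and -0.24 (-1.46 to 0.99, adjusted p = 0.976) in LK cells, and for Ticam1 -0.01 (-1.02 to 1.003, adjusted p = 0.996) and 0.48 (-0.54 to 1.49, adjusted p = 0.923). Zbp1 rested on 15 to 44 reads in the LK libraries and on 99 to 192 in the LSK libraries. Its SE was 0.59 in both populations, and both intervals hold a 2-fold fall. The equal SE comes from the fit, which shares the spread of a gene over all 4 groups. A 2-fold fall of Zbp1 was thus not excluded in either population at this depth and spread. In LK cells the pseudocount of 1 also understates a change of a signal this low.

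Tnf, the ligand, had a signal of 20.5 and 39.3 in WT LSK and 26.6 and 28.1 in Ripk3-/- LSK libraries, and of 11.3 and 16.9 in WT LK and 9.20 and 10.7 in Ripk3-/- LK libraries. Its receptor Tnfrsf1a had 111 and 103 in WT LSK, 103 and 106 in Ripk3-/- LSK, 84.5 and 99.9 in WT LK and 104 and 120 in Ripk3-/- LK libraries. In LSK cells the genotypes overlapped for both genes, whereas in LK cells both Ripk3-/- libraries were lower for the ligand and higher for the receptor than both WT libraries. Neither difference passed the test. The log2 fold change of Tnf was -0.05 (-0.91 to 0.81, adjusted p = 0.963 from limma) in LSK and -0.44 (-1.31 to 0.42, adjusted p = 0.920) in LK cells, and that of Tnfrsf1a was -0.03 (-0.48 to 0.41, adjusted p = 0.955) and 0.28 (-0.16 to 0.72, adjusted p = 0.898).

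Casp8, the protease that cleaves the RIP kinases, and Fadd, the adaptor that holds it, form the brake. Casp8 had a signal of 174 and 184 in WT LSK and 176 and 198 in Ripk3-/- LSK libraries, and of 132 and 113 in WT LK and 145 and 145 in Ripk3-/- LK libraries. Fadd had 27.6 and 23.6 in WT LSK, 19.7 and 15.3 in Ripk3-/- LSK, 19.2 and 12.5 in WT LK and 21.2 and 20.3 in Ripk3-/- LK libraries. Fadd did not overlap between genotypes in either population, with the Ripk3-/- libraries lower in LSK and higher in LK cells. Its log2 fold change was -0.53 (-1.33 to 0.27, adjusted p = 0.488 from limma) in LSK and 0.39 (-0.42 to 1.20, adjusted p = 0.921) in LK cells. The difference of these, tested as an interaction, was -0.93 (SE 0.55, adjusted p = 0.580 from limma) and did not pass. For Casp8 the intervals were the narrowest of the 10 genes, at 0.06 (-0.34 to 0.46, adjusted p = 0.901) in LSK and 0.25 (-0.15 to 0.64, adjusted p = 0.899) in LK cells, so that in LSK cells a fall below 0.793 or a rise above 1.38 of the WT level lay outside the interval.

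Cyld, the deubiquitinase that strips ubiquitin chains from Ripk1, had a signal of 43.0 and 67.4 in WT LSK and 65.0 and 90.1 in Ripk3-/- LSK libraries, and of 37.0 and 49.0 in WT LK and 62.4 and 57.3 in Ripk3-/- LK libraries. The Ripk3-/- libraries were above both WT libraries in LK cells and overlapped them in LSK cells. The log2 fold change was 0.50 (-0.09 to 1.09, adjusted p = 0.360 from limma) in LSK and 0.48 (-0.11 to 1.07, adjusted p = 0.840) in LK cells. Averaged over both populations in the same fit, a contrast chosen after the data were seen, it was 0.49 (SE 0.20, unadjusted p = 0.0231, adjusted p = 0.278 from limma), with Cyld higher by mean in both populations. In that contrast Ripk3 was again the 1 member of 10 called (1.64% of 15901 genes were called).

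Besides Ripk3, 9 of the 10 genes thus had no adjusted p under 0.05 for genotype in LSK or in LK cells, by limma or by edgeR. Counting libraries instead, 2 of 10 genes (Ripk3 and Fadd) had genotypes that did not overlap in LSK cells, where this held for 44.6% of all genes tested, and 6 of 10 (Ripk3, Tnf, Tnfrsf1a, Casp8, Fadd and Cyld) in LK cells, where it held for 40.0%. With 2 libraries against 2, the smallest two-sided p of an exact permutation test is 0.333, so single genes rest on the spread that limma shares across genes and groups. In these bulk libraries, fewer cells of a type and less RNA per cell cannot be told apart. The neutrophil genes and Kit, given above, were higher in Ripk3-/- libraries of both populations, and their part in these values was not tested.

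**Figure D3:**
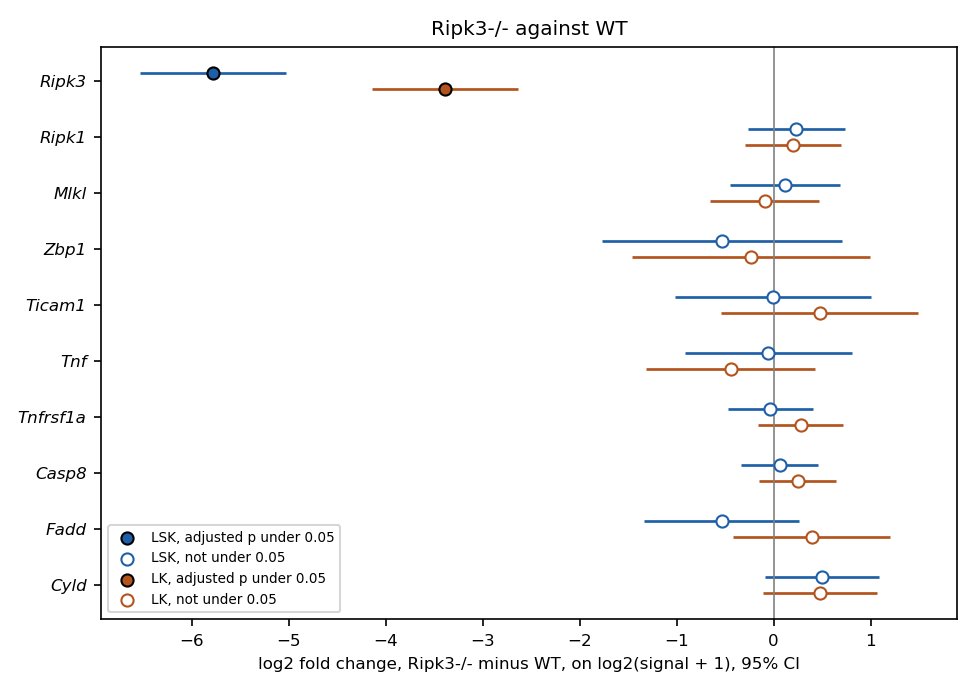
Log2 fold change, Ripk3-/- minus WT, on the log2(signal + 1) scale, for the 10 genes in LSK (blue) and LK cells (orange), with 95% confidence intervals from limma and filled points where the adjusted p was under 0.05. The 2 filled points are those of Ripk3, at -5.78 and -3.39, and every other interval crosses 0.

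The second comparison asks how the machinery differs between LSK and LK cells. Within WT mice, Ripk1 and Mlkl were lower and Zbp1 was higher in LSK than in LK cells, 3 of 10 members called where 23.9% of 15950 genes tested were called. Within Ripk3-/- mice, Ripk1 was again lower and Zbp1 again higher, and Ripk3 was lower, 3 of 10 called where 20.2% of 15237 genes were called. A count of 3 in 10 is near these backgrounds, so it is not a result about the group of genes, and the values of the single genes follow. They are given as rescaled CPM, for which the reads of all 8 libraries were scaled together.

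Ripk1 was at 62.8 and 43.6 rescaled CPM in WT LSK and at 121 and 98.9 in WT LK libraries, and at 60.5 and 63.4 in Ripk3-/- LSK and 133 and 121 in Ripk3-/- LK libraries. All 4 LSK libraries lay below all 4 LK libraries. The log2 difference, LSK minus LK, was -1.05 (SE 0.24, adjusted p = 0.00322 from limma) in WT, or 0.483 of the LK level, and -1.02 (SE 0.24, adjusted p = 0.00394 from limma) in Ripk3-/- cells. The WT call was lost with no trend (adjusted p = 0.0552) and without WT LK replicate 1 (-0.90, adjusted p = 0.0698), and the Ripk3-/- call with no trend (0.0676), without Ripk3-/- LK replicate 1 (-0.95, adjusted p = 0.0538) and with the values as deposited (-0.65, adjusted p = 0.0624).

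Mlkl was at 43.9 and 46.9 rescaled CPM in WT LSK and at 94.3 and 73.2 in WT LK libraries, and at 64.2 and 38.0 in Ripk3-/- LSK and 80.6 and 76.3 in Ripk3-/- LK libraries. Again every LSK library lay below every LK library, with Ripk3-/- LSK replicate 1 the closest to them. The log2 difference was -0.86 (SE 0.27, adjusted p = 0.0265 from limma) in WT and -0.66 (SE 0.27, adjusted p = 0.101 from limma) in Ripk3-/- cells, the latter not called. The WT call rested on single libraries, since it was lost without WT LSK replicate 1 (-0.81, adjusted p = 0.0969), without WT LSK replicate 2 (-0.90, adjusted p = 0.0754) or without WT LK replicate 1 (-0.68, adjusted p = 0.232), and also with no filter (0.0739), no trend (0.113) or the values as deposited (-0.49, adjusted p = 0.186). In Ripk3-/- cells Mlkl passed without Ripk3-/- LSK replicate 1 (-1.03, adjusted p = 0.0257).

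Zbp1 went the other way. It was at 16.7 and 13.9 rescaled CPM in WT LSK and at 3.18 and 1.89 in WT LK libraries, and at 7.05 and 15.0 in Ripk3-/- LSK and 3.17 and 1.07 in Ripk3-/- LK libraries. All LSK libraries lay above all LK libraries. The log2 difference was 2.23 (SE 0.60, adjusted p = 0.0102 from limma) in WT and 1.95 (SE 0.60, adjusted p = 0.0227 from limma) in Ripk3-/- cells, on a scale with a pseudocount of 1 that understates the change of a gene this low. The edgeR test of the reads gave 2.58 (adjusted p = 0.0232) and 2.42 (adjusted p = 0.0361). In limma the WT call was lost with no filter (adjusted p = 0.0560), without WT LSK replicate 1 (0.0619) and without WT LK replicate 2 (0.0782), and the Ripk3-/- call with no filter (0.103), without Ripk3-/- LSK replicate 2 (0.225) and without Ripk3-/- LK replicate 2 (0.247).

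Ripk3 in WT cells was at 143 and 147 rescaled CPM in LSK and at 164 and 169 in LK libraries. The populations did not overlap, but the log2 difference of -0.20 (-0.94 to 0.54, adjusted p = 0.708 from limma) did not pass and turned to 0.17 with the values as deposited. The lower value in Ripk3-/- LSK than Ripk3-/- LK cells (-2.52, SE 0.36, adjusted p = 1.96e-05 from limma) is that of the remaining reads, at 2.99 and 0.941 against 18.4 and 12.2 rescaled CPM.

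Tnf was at 17.96 and 34.5 rescaled CPM in WT LSK against 12.9 and 19.1 in WT LK libraries, which overlapped, and at 23.6 and 24.6 in Ripk3-/- LSK against 10.4 and 12.2 in Ripk3-/- LK libraries, which did not. The log2 difference was 0.63 (-0.23 to 1.502, adjusted p = 0.268 from limma) in WT and 1.03 (0.16 to 1.89, adjusted p = 0.0899 from limma) in Ripk3-/- cells, where the values as deposited gave 1.38 (adjusted p = 0.0237). The remaining genes did not pass in either genotype. In WT cells the log2 difference was -0.15 for Tnfrsf1a, 0.18 for Casp8, 0.33 for Fadd, -0.02 for Ticam1 and -0.03 for Cyld, with a widest interval of -1.04 to 0.99 (Ticam1) and a narrowest of -0.23 to 0.58 (Casp8). In Ripk3-/- cells it was -0.46 for Tnfrsf1a, -0.01 for Casp8, -0.60 for Fadd, -0.52 for Ticam1 and -0.02 for Cyld. Casp8 in WT cells passed only with the values as deposited (0.54, adjusted p = 0.0477).

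The populations did not overlap for 5 of 10 genes in WT (Ripk3, Ripk1, Mlkl, Zbp1 and Casp8), where this held for 64.0% of all genes tested, and for 8 of 10 in Ripk3-/- cells (all but Casp8 and Cyld), where it held for 57.5%. The direction of these differences over all genes depends on the processing. With the values as deposited, scaled within each population, the median log2 difference of all genes rose by 0.34 in WT and in Ripk3-/- cells, and the share of called genes that were higher in LSK cells went from 38.3% to 70.9% in WT and from 39.5% to 71.3% in Ripk3-/- cells. With no trend in limma and the scale unchanged, that share was 60.6% in WT and 54.4% in Ripk3-/- cells. Other lists moved with the populations. Immediate early genes (10 of 10 above 0 in every library) summed to 21989 to 25275 rescaled CPM in LSK against 9731 to 11917 in LK libraries, genes of monocytes and macrophages (8 listed, C1qc at 0 in WT LSK replicate 1) to 66.7 to 107 against 312 to 417, and T cell genes (4 listed, Cd8a or Cd3d at 0 in 3 libraries) to 11.4 to 18.4 against 1.78 to 6.43. B cell genes (4 listed, Ms4a1 at 0 in WT LK replicate 2) summed to 60.1 to 86.2 against 51.8 to 76.5. Some of these also differed by genotype. The monocyte and macrophage sum was 81.3 and 107 in WT against 68.2 and 66.7 in Ripk3-/- LSK libraries. In LK libraries it was 417 and 356 against 317 and 312. Junb, Ier2, Atf3 and Nr4a1 were lower in both Ripk3-/- than in both WT libraries of each population. Fos and Dusp1 were higher in both Ripk3-/- LSK libraries and overlapped in LK cells. The part of all these lists in the values of the 10 genes was not tested.

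**Figure D4:**
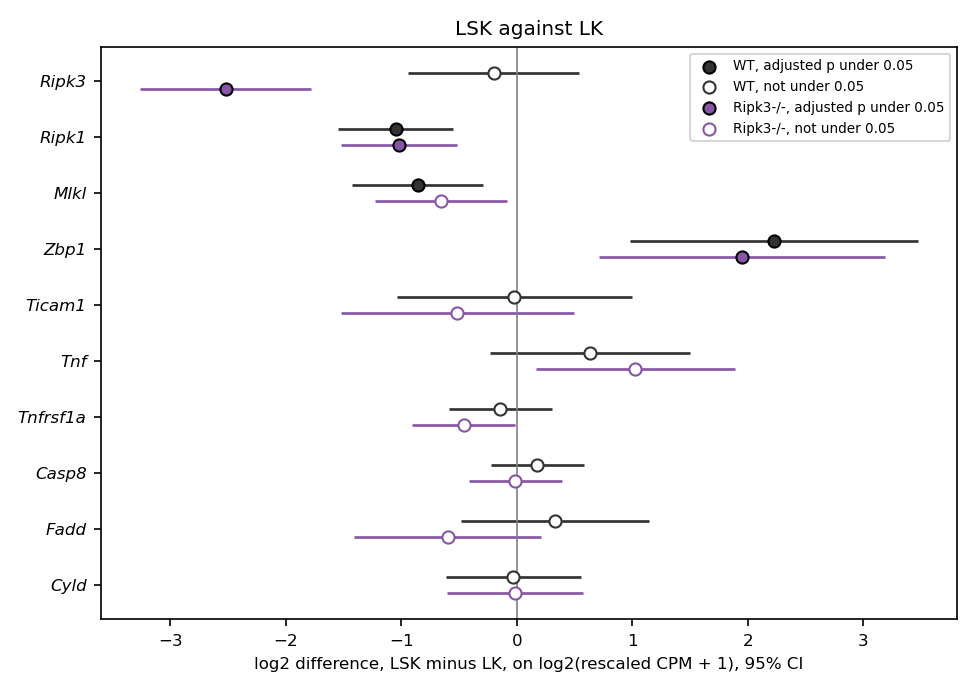
Log2 difference, LSK minus LK, on the log2(rescaled CPM + 1) scale, for the 10 genes in WT (black) and Ripk3-/- cells (purple), with 95% confidence intervals from limma and filled points where the adjusted p was under 0.05. Ripk1 lies near -1 in both genotypes, Mlkl at -0.86 and -0.66, and Zbp1 at 2.23 and 1.95. With the values as deposited, the uncalled differences of Ripk3, Ticam1, Tnfrsf1a and Cyld in WT and of Casp8 and Cyld in Ripk3-/- cells change sign.

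Around the 10 genes stand 61 other genes of the pathway, listed by role as ligands, receptors, the ubiquitin and kinase checkpoint at the TNF receptor, the caspase-8 branch, regulators of Ripk3 and Mlkl, and membrane repair and rupture. In LSK cells 59 were tested, and limma called 0 higher and 1 lower. This is near the share over all genes, of which limma called 2.16% of 16817. The median log2 fold change of the 59 genes was 0.19 against -0.01 for all genes. The 1 gene was Hsp90aa1, a chaperone that folds Ripk3 and Mlkl, with a signal of 659 and 591 in WT against 401 and 377 in Ripk3-/- LSK libraries (-0.68, SE 0.16, adjusted p = 0.0298 from limma). This call was lost in 10 of 16 alternatives, edgeR among them, and in the fits without each of the 4 LSK libraries and without each of the Ripk3-/- LK libraries (up to adjusted p = 0.268 over all alternatives). The count of 0 higher did not hold in every alternative either. The checkpoint gene Chuk was at 1.42 without WT LSK replicate 1, where that count changed, and at 0.47 without WT LSK replicate 2.

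In LK cells 56 of the 61 genes were tested and 0 were called in either direction by limma, with a median of -0.06 against 0.01 for all genes. Limma called 0.473% of all 13949 genes tested there. The edgeR test called 1, Ltb, the lymphotoxin beta ligand, where it called 0.319% of all genes. The signal of Ltb was 3.26 and 4.73 in WT against 1.14 and 0.994 in Ripk3-/- LK libraries (-1.26, SE 0.40, adjusted p = 0.307 from limma). The largest drop by size was that of Otulin, which removes linear ubiquitin chains, with -2.23 (SE 0.61, adjusted p = 0.166 from limma). Its signal was 119 and 14.04 in WT against 7.42 and 8.82 in Ripk3-/- LK libraries, so that 1 library, WT LK replicate 1, stood apart from the other 3. Mapkapk2, the kinase MK2 that phosphorylates Ripk1, showed the same library with 317 and 111 in WT against 63.7 and 81.8 in Ripk3-/- LK libraries (-1.37, SE 0.32, adjusted p = 0.0580 from limma). The count of 0 did not hold in every alternative. Limma called Mapkapk2 with a replicate block (adjusted p = 0.0484) and without Ripk3-/- LSK replicate 1 (0.0339) or replicate 2 (0.0360), and both Mapkapk2 and Otulin in a separate fit (0.0130 and 0.0385) and without WT LK replicate 2 (0.000201 and 0.000361). Without WT LK replicate 1 the value of Otulin was -0.73.

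Averaged over both populations, the contrast chosen after the data were seen, 57 of the 61 genes were tested and 1 was called by limma. That count is near the share over all genes, of which limma called 1.64% of 15901. The gene was Tnfaip3, the ubiquitin editor A20, which was lower in Ripk3-/- cells (-0.56, adjusted p = 0.0185 from limma). Its signal was 295 and 287 in WT LSK, 191 and 218 in Ripk3-/- LSK, 386 and 394 in WT LK and 229 and 283 in Ripk3-/- LK libraries, and both Ripk3-/- libraries were lower than both WT libraries in LSK as well as in LK cells. That call was lost in 8 of 16 alternatives, among them the fits without WT LSK replicate 1 or 2, Ripk3-/- LSK replicate 1, WT LK replicate 1 or 2 and Ripk3-/- LK replicate 1 (up to adjusted p = 0.294).

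Other genes with large genotype differences for their role were not called. In LSK cells they were the ligands Tnfsf10 (TRAIL, 0.82) and Ltb (0.52), the receptors Tlr4 (1.16) and Ifngr2 (0.51), Otulin (1.27) and the kinase adaptor Tab3 (-1.20), the ubiquitin ligase Stub1 (0.86, adjusted p = 0.0673 from limma), and Vps4b (0.53) and Flot2 (0.52) of membrane repair. The value of Tlr4 rests on a WT library at 0 (signal of 9.83 and 0 in WT against 13.8 and 2.64 in Ripk3-/- LSK libraries, which overlap) and turned to -0.56 without WT LSK replicate 2. Tab3 overlapped too, with a signal of 11.8 and 7.87 in WT against 8.12 and 1.37 in Ripk3-/- LSK libraries. Its value was -0.23 without Ripk3-/- LSK replicate 2. In LK cells they were Tnfsf10 (1.004), Tlr4 (0.96), the TRAIL receptor Tnfrsf10b (0.35), the inositol phosphate kinase Ipmk (-0.52) and the ubiquitin ligase Peli1 (-0.41). Chmp4b of the ESCRT machinery (-0.77) and Ninj1, which ruptures the plasma membrane (-0.45), were the others. Without WT LK replicate 2 the value was 0.12 for Tnfsf10, 0.50 for Tlr4 and -0.12 for Tnfrsf10b. In the interaction 57 genes were tested and 0 were called by limma, which called 0.358% of all 15901 genes. The edgeR test called Ltb, where it called 0.254% of all genes. Without WT LK replicate 2 the limma value was 4.99 for Otulin and 2.16 for Mapkapk2, and the count of 0 did not hold. That fit leaves WT LK replicate 1, where both genes stood apart, as the only WT LK library. In the same fit the effect of Mapkapk2 averaged over both populations was -1.04.

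Between populations more of the list was called. In WT cells 57 of the 61 genes were tested, 2 were higher and 21 lower in LSK than in LK cells, with a median log2 difference of -0.34 against 0.08 for all genes (limma called 9.16% of all genes higher and 14.8% lower, and edgeR called 15.9% in either direction). In Ripk3-/- cells 57 were tested, 7 were higher and 10 lower, with a median of -0.26 against 0.00 for all genes (7.95% and 12.2%, and 12.8% with edgeR). The median of all genes depends on the filter. With a mean of at least 5 it was -0.24 in WT and -0.11 in Ripk3-/- cells, closer to the medians of the list. There were 10 genes called in both, all in the same direction, 10 of the 23 called in WT and 10 of the 17 called in Ripk3-/- cells. They were the ligands Ltb and Tnfsf10, higher in LSK cells, and Tnfrsf1b, Ifngr1, Tnfaip3, Bid, Hsp90aa1, Hsp90ab1, Aurka and Flot2, lower in LSK cells.

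Ltb had the largest of these differences, at 72.5 and 92.0 rescaled CPM in WT LSK against 3.72 and 5.34 in WT LK libraries (3.92, SE 0.41, from limma) and at 140 and 99.7 in Ripk3-/- LSK against 1.297 and 1.14 in Ripk3-/- LK libraries (5.75, SE 0.40). Ifngr1, a chain of the interferon gamma receptor, was at 252 and 171 in WT LSK against 810 and 685 in WT LK libraries (-1.84, SE 0.18) and at 276 and 245 in Ripk3-/- LSK against 827 and 931 in Ripk3-/- LK libraries (-1.75, SE 0.18). Bid, which caspase-8 cleaves to start mitochondrial apoptosis, was at 94.0 and 87.6 in WT LSK against 253 and 221 in WT LK libraries (-1.37, SE 0.22) and at 119 and 72.6 in Ripk3-/- LSK against 221 and 223 in Ripk3-/- LK libraries (-1.25, SE 0.22). The populations did not overlap for any of these 3 genes, which were the ones to keep their call in every alternative tried in both genotypes.

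Within the roles, WT cells gave 3 of 9 receptors lower (Tnfrsf1b -1.10, Ifngr1 and Ifngr2 -0.86), 8 of 23 checkpoint genes lower (Otulin -2.16, Chuk -1.67, Mapkapk2 -1.45, Map3k7 -1.40, Ikbke -1.05, Traf2 -1.02, Tnfaip3 -0.79 and Rbck1 -0.66), and Bid of the caspase-8 branch lower (-1.37). Of the 11 regulators of Ripk3 and Mlkl, 5 were lower (Ipmk -1.73, Pgam5 -0.87, Aurka -0.71, Hsp90aa1 -0.60 and Hsp90ab1 -0.53), and of the 8 genes of membrane repair and rupture 3 were lower (Flot2 -1.85, Vps4b -0.73 and Chmp3 -0.69). The large value of Otulin rests on WT LK replicate 1, at 136 rescaled CPM against 15.8 in WT LK replicate 2 and 13.6 and 6.91 in WT LSK libraries, and was -0.65 (adjusted p = 0.502 from limma) without that library. Mapkapk2, at 361 in that library and 125 in the other, was -0.69 (adjusted p = 0.159 from limma) without it. Without WT LSK replicate 1, Ikbke was -0.27 (adjusted p = 0.556 from limma) and Traf2 -0.40 (adjusted p = 0.324), and their calls were lost in 10 and 7 of 16 alternatives. Of the 23 calls, 6 were kept in all 16 alternatives (Bid, Chuk, Flot2, Ifngr1, Ipmk and Ltb). The fit without WT LK replicate 1 lost 11 of the 23, that without WT LK replicate 2 lost 9, and those without WT LSK replicate 1 or 2 lost 8 and 10.

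In Ripk3-/- cells the genes called besides the shared ones were the checkpoint genes Traf5 (1.89), Xiap (1.27) and Tab2 (0.88), higher in LSK cells, and Spata2 (-1.18), which recruits Cyld, lower in LSK cells. Stub1 (0.75) and Ninj1 (0.62) were higher and the phosphatase Ppm1b (-0.96) was lower. Of the 17 calls, 4 were kept in all 17 alternatives (Bid, Hsp90aa1, Ifngr1 and Ltb). Tab2 was lost in 9 of them, the replicate block among these (adjusted p = 0.0598 from limma), and was 0.54 (adjusted p = 0.399) without Ripk3-/- LSK replicate 2. Xiap, Stub1 and Ppm1b were lost in 5 alternatives each, Spata2 and Ninj1 in 4 and Traf5 in 2. Whether the LSK minus LK difference of these genes itself differed between genotypes was tested in the interaction given above, where none of those 7 was called.

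The number of pathway genes called between populations was thus unstable. In WT cells it fell from 23 to 6 with no trend, 10 with no filter, 11 with the values as deposited, 13 without WT LSK replicate 2, 12 without WT LK replicate 1 and 14 without WT LK replicate 2. In Ripk3-/- cells it fell from 17 to 5 with no trend, 10 with no filter, 9 without Ripk3-/- LSK replicate 2 and 8 without Ripk3-/- LK replicate 2.

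**Figure D5:**
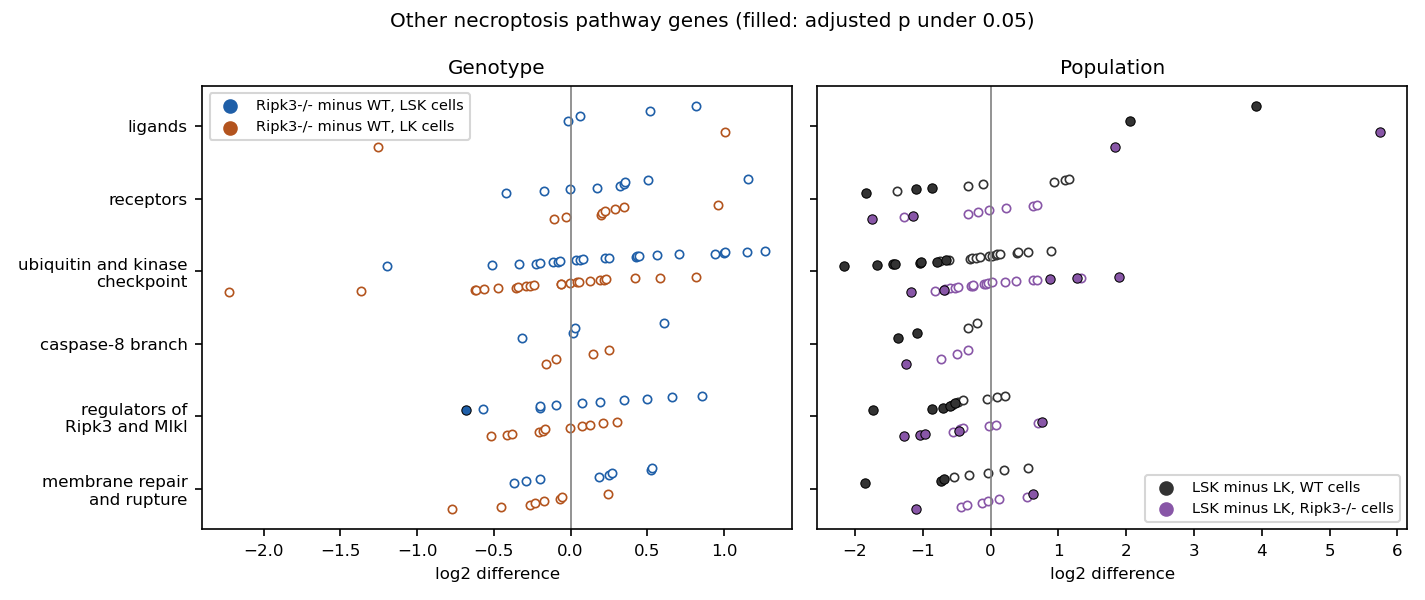
Log2 difference of each of the other pathway genes by role, for genotype (left, Ripk3-/- minus WT in LSK and LK cells) and population (right, LSK minus LK in WT and Ripk3-/- cells), with filled points where the limma adjusted p was under 0.05. On the left 1 point is filled, Hsp90aa1 in LSK cells at -0.68, and on the right the filled points lie mostly below 0 except those of the ligands and a few Ripk3-/- genes.

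The genes whose pattern over the 8 libraries was most like that of Mlkl, by Pearson's correlation of log2(rescaled CPM + 1) over 9104 genes, were Cdk5rap3 (r = 0.99), Rhbdd3 (r = 0.98) and Bphl (r = 0.98). Those most like Ripk3, whose pattern is set by the deletion, were Odc1 (r = 0.98), Hist1h2bj (r = 0.97) and Ifrd1 (r = 0.95). These correlations are a description over 8 libraries that share 4 groups, and they are the highest of a search.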

How the data were processed

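RNA from sorted LSK and LK cells of WT and Ripk3-/- mice was sequenced from stranded mRNA libraries. The signal values were deposited by the authors as 1 value per gene and library (8 libraries, 29955 gene names) under the heading FPKM. TopHat and the mm9 build are named in the submitters' processing notes, and the counter, the annotation and their versions are not given in the sources used here. All nonzero values of a library (100% in each) lay within 0.01 of an integer once divided by 1 step common to its genes. The deposited signal is therefore taken as TMM-scaled CPM, not divided by gene length, with LSK and LK libraries scaled separately. That division gave back the reads. There were 0 value columns that belong to no sample.

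Differences were tested with limma 3.58.1 (R 4.3.3), with a mean-variance trend, on log2(signal + 1), in 1 fit of 4 group means over all 8 libraries. Tests were two-sided, with Benjamini-Hochberg adjustment over all genes with a mean of at least 1 in the libraries compared and a threshold of 0.05. LSK and LK were compared on CPM of the recovered reads rescaled by TMM over all 8 libraries (edgeR 4.0.16). Alternatives were a pseudocount of 0.1, no filter, a mean of at least 5, median of ratios scaling, the edgeR quasi-likelihood test on recovered reads, a replicate block, no trend, a separate fit per population, the other scaling, and leaving out each library. The genotype effect averaged over both populations and a crossed block were added after the data were seen. The scripts were tested on simulated data.

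Named were all 10 members, pathway genes with an adjusted p under 0.05, the 2 pathway genes with the largest genotype difference per role and population, and the 3 genes most like Mlkl and Ripk3 in pattern. The members, the 61 pathway genes and the marker lists were chosen with earlier results of these data known. Positions came from the GRCm38 annotation by symbol. Near-identical pseudogenes were found with BLAST 2.17.0 (90% identity over 200 bases). Adgre1, Chmp3 and Otulin are listed in the files as Emr1, Vps24 and Fam105b. Some genes of the pathway list enter the counts but are not reported here by name.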

Additional observations from a re-analysis of the deposited data

Results flagged for a closer look

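The loss of Ripk3 signal itself differed between the populations by a test of the difference. The genotype effect in LSK cells minus that in LK cells was -2.4 on the log2 scale (SE 0.51, adjusted p = 0.0343 from limma), with 42 and 11 reads of Ripk3 in LSK against 255 and 171 in LK libraries of Ripk3-/- mice. Both Ripk3-/- LK libraries kept a larger share of the WT mean (11.0% and 7.23%) than both Ripk3-/- LSK libraries (2.04% and 0.651%). The call was lost in 10 of 16 alternatives, 7 of the 8 fits without 1 library among them (adjusted p up to 0.342 from limma). The cause was not tested.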

How the results depend on the processing

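The number of the 10 genes called moved under some settings. For genotype in LK cells it was 1, and 0 with no trend. For the interaction it was 1, and 0 at a pseudocount of 0.1, with no filter and with no trend, and 0 to 1 when 1 library was left out. For LSK against LK in WT cells it was 3, and 1 with no filter and with no trend, and 1 to 3 when 1 library was left out. The other counts of members called stayed within 1.5 times, in all settings run.

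Small differences that were not called changed sign. With edgeR this held for genotype in LSK cells for Ticam1 (0.028) and Tnfrsf1a (0.013), and for LSK against LK in Ripk3-/- cells for Casp8 (0.051) and Cyld (0.058). Median of ratios scaling turned Ticam1 (0.030) and Cyld (0.027) in WT, Casp8 (0.036) and Cyld (0.032) in Ripk3-/- and the averaged effect of Mlkl (-0.012). The values as deposited, in which each population has its own scale, turned Ripk3 (0.17), Ticam1 (0.32), Tnfrsf1a (0.22) and Cyld (0.33) in WT and Casp8 (0.36) and Cyld (0.35) in Ripk3-/- cells. Leaving out 1 library turned further uncalled values, given as their lowest and highest log2 value. For genotype in LSK cells these were Ripk1 -0.025 to 0.49, Mlkl -0.25 to 0.48, Ticam1 -0.41 to 0.40, Tnf -0.51 to 0.40, Tnfrsf1a -0.086 to 0.021 and Casp8 -0.022 to 0.15, and in LK cells Mlkl -0.26 to 0.083, Zbp1 -0.72 to 0.25 and Ticam1 -0.019 to 0.97. For the interaction they were Ripk1 -0.22 to 0.29, Mlkl -0.16 to 0.57, Zbp1 -0.80 to 0.21, Ticam1 -0.98 to 0.011, Tnf -0.063 to 0.84 and Cyld -0.30 to 0.34. For LSK against LK they were Ticam1 -0.53 to 0.48 and Cyld -0.35 to 0.29 in WT, and Casp8 -0.089 to 0.062 and Cyld -0.24 to 0.20 in Ripk3-/- cells. For the averaged genotype effect they were Mlkl -0.17 to 0.19, Ticam1 -0.014 to 0.48 and Fadd -0.21 to 0.076. Where a fit left 1 library in a group, that library was assumed to vary like the others. The causes were not tested.

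Among all genes, 363 were called for genotype in LSK cells (152 with no filter, 219 with edgeR, 120 with no trend, 195 in a separate fit, 99 to 262 without 1 library), and 66 in LK cells (9 with no filter, 3 with no trend, 125 in a separate fit, 13 to 101 without 1 library). The interaction called 57 (3 with no filter, 2 with no trend, 17 to 90 without 1 library) and the averaged effect 260 (62, 38 and 100 to 210). LSK against LK called 3814 in WT (2448, 1998 and 1502 to 4116) and 3072 in Ripk3-/- cells (1935, 1494 and 1489 to 3163).

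Deviations of same-numbered replicates correlated at -0.000258 (LSK) and -0.0101 (LK) between genotypes and at 0.00402 (WT) and -0.166 (Ripk3-/-) between populations, so the numbers were not taken to pair the libraries. With the replicate number as a block the counts were 317, 64, 53, 3598 and 2940, in the order LSK, LK, interaction, WT and Ripk3-/-, and no call of a member changed. A crossed block, chosen after seeing the data, gave 3196 in Ripk3-/- cells.

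Zbp1 rests on 15 to 44 reads in LK libraries. With 2 libraries per group the intervals of most members still hold changes of 1.5-fold, and sex cannot be told apart from genotype.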
